A study of Mus musculus with 12 samples.

Results

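Glycogen is the branched glucose polymer that muscle stores as fuel, and 9 of the genes that build it, break it down or switch between these states were followed here: Pygm, Pygb, Phkg1, Phka1, Ppp1r3a, Ppp1r3c, Gys1, Gyg and Gbe1. They were chosen by name, for their role in glycogen metabolism, from the 36229 genes of the expression table, and not by a threshold on any value. The choice was made with earlier results of these data known. All 9 were present in the table under a mouse symbol, and all 9 passed the filter on low values (a mean normalised count of at least 10) in each fit. RNA was sequenced from embryonic fibroblasts of C57BL/6 mice (MEFs) in which muscle differentiation had been induced by adenoviral delivery of MyoD (Adeno-MyoD), a transcription factor that can convert fibroblasts to muscle cells.

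Glycogenin (Gyg) primes a new glycogen particle, glycogen synthase (Gys1 in muscle) lengthens its chains and the branching enzyme (Gbe1) adds the branch points. Glycogen phosphorylase releases glucose 1-phosphate from the chain ends, as a muscle enzyme (Pygm) or a brain enzyme (Pygb), and is switched on by phosphorylase kinase, whose catalytic gamma and regulatory alpha subunits in muscle are encoded by Phkg1 and Phka1. The glycogen-targeting subunits Ppp1r3a and Ppp1r3c bring protein phosphatase 1 to the particle, where it switches synthase on and phosphorylase off. In humans, loss of PYGM causes McArdle disease, in which muscle cannot use its glycogen.

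The mixed cultures were of 4 genotypes: Kdm5a-/-;Rb1-/- (the double knockout, DKO), Rb1-/- (Rb1 KO), Kdm5a-/- (Kdm5a KO) and wild type (WT). Rb1 encodes the retinoblastoma protein, which holds back cell division and is needed for full muscle differentiation, and Kdm5a encodes a histone demethylase that binds it. Every group was given Adeno-MyoD for 24 h in differentiation medium (horse serum at 2%, insulin at 10 µg/ml) and then kept for 72 h more without virus. Ribosomal RNA was removed from the RNA of these cultures, and reads were 40 bases long. Myotubes were also purified by size exclusion gravity from DKO and WT cultures and left to recover for 24 h in conditioned medium. Their RNA was selected with oligo(dT), amplified for 15 cycles and read for 36 bases on another instrument, so that purification, recovery, RNA selection and sequencing change together between the library types and cannot be told apart. Each of the 6 groups had 2 libraries. The labels do not say whether these came from separate cultures or embryos, or which part of Rb1 or Kdm5a was deleted, so that p-values measure the spread between libraries, which may be technical.

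Differences were tested with limma on the log2 scale across all genes, with p-values adjusted by Benjamini-Hochberg and a threshold of 0.05, and genes are said to rise or fall only where they passed. Values are normalised counts, the reads of a gene divided by a size factor of its library, and libraries held 8688604 to 41309134 reads. In purified DKO myotubes the replicates stood apart from each other, with a median absolute log2 difference of 0.499, against 0.107 to 0.176 in the other 5 groups. Kdm5a fell in Kdm5a KO against WT (log2 difference -0.62, adjusted p = 0.000189) and in DKO against WT (-0.38, adjusted p = 0.00146), Rb1 fell in Rb1 KO against WT (-0.34, adjusted p = 5.31e-05), and Rb1 in DKO did not pass against WT (-0.04, adjusted p = 0.510), so reads over the whole gene check the labels weakly. In purified myotubes Kdm5a averaged 701 ± 122 normalised counts in DKO and 2904 ± 182 in WT, and Rb1 averaged 2230 ± 178 in DKO and 3359 ± 199 in WT (SD, n = 2 each). In mixed cultures Xist had 6933 and 6809.7 normalised counts in DKO and 3109.9 and 3251 in Kdm5a KO, against no reads in Rb1 KO and WT, and Ddx3y, a Y-linked gene, had no reads in DKO and Kdm5a KO, against 1267 and 1079.8 in Rb1 KO and 3319 and 3308 in WT. In purified myotubes Xist averaged 9571 in DKO and 2.17 in WT, and Ddx3y had no reads in DKO and averaged 2650 in WT. By these genes, genotypes with and without Kdm5a also differ in sex, and sex and Kdm5a genotype cannot be told apart in DKO against Rb1 KO, DKO against WT, Kdm5a KO against WT or the interaction, whereas Rb1 KO against WT and DKO against Kdm5a KO compare cells of the same sex. The sum of 10 myotube markers was 151124 to 165421 in DKO, 52155 to 53126 in Rb1 KO, 349675 to 367753 in Kdm5a KO and 372411 to 405472 in WT mixed cultures. Among these markers, Tnnc2 shares 74.0% of its exon bases with Ube2c on the other strand, and Ckm shares 15.5% with an antisense gene. Their values are less certain, because no source used here says whether counting used strand. The sum of 10 fibroblast markers was 15940 to 16914 in DKO, 92654 to 110338 in Rb1 KO, 11878 to 12360 in Kdm5a KO and 13173 to 13699 in WT, and that of 5 genes of cycling cells was 25292 to 25378 in DKO, 10095 to 11160 in Rb1 KO, 253 to 261 in Kdm5a KO and 148 to 174 in WT. Liver markers summed to at most 23 in any mixed library, with Alb and Serpina1a at 0 reads in Rb1 KO, Kdm5a KO and WT, and adipocyte markers to at most 14.9. The sum of 5 endothelial markers was 354 to 379 in DKO, 95.9 to 98.7 in Rb1 KO, 123 to 147 in Kdm5a KO and 94.9 to 102 in WT. That of 5 brain and glia markers was 328 to 348 in DKO, 87.8 to 93.2 in Rb1 KO, 179 to 230 in Kdm5a KO and 128 to 152 in WT, and that of 4 macrophage and blood markers was 129 to 138 in DKO, 199 to 277 in Rb1 KO, 49.7 to 57.4 in Kdm5a KO and 75.4 to 115 in WT. The sum of 5 cardiac markers was 5359 to 5630 in DKO, 3218 to 3300 in Rb1 KO, 25849 to 26748 in Kdm5a KO and 20540 to 20943 in WT. The median cardiac marker averaged 36.4 in DKO, 8.81 in Rb1 KO, 22.7 in Kdm5a KO and 35.3 in WT. The cardiac sum thus rests on the most abundant markers. These are bulk samples, in which fewer myotubes and less RNA per myotube cannot be told apart, and the part of culture makeup in the results below was not tested.

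The promoters of 4 members are shown because these genes lay at the extremes of the response: Pygm, Ppp1r3a and Ppp1r3c had the lowest levels relative to WT in Rb1 KO, and Pygb did not pass in any comparison. Each sequence is the 250 bases before the gene's start in RefSeq (GRCm38.p6), given 5′ to 3′ on the gene's strand, with matches to CANNTG (the E-box core, which MyoD and other factors of its class bind) and to the MEF2 motif in capitals.
Pygm, chr19:6384158-6384407, plus strand: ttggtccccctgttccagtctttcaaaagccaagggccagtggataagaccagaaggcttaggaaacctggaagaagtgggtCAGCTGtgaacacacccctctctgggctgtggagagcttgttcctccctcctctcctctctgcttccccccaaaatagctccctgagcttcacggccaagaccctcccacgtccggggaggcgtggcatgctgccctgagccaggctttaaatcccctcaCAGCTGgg
Pygb, chr2:150786546-150786795, plus strand: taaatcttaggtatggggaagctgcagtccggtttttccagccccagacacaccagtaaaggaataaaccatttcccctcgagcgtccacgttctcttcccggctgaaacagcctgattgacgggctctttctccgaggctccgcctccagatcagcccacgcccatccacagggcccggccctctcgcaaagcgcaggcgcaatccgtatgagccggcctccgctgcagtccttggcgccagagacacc
Ppp1r3a, chr6:14755275-14755524, minus strand: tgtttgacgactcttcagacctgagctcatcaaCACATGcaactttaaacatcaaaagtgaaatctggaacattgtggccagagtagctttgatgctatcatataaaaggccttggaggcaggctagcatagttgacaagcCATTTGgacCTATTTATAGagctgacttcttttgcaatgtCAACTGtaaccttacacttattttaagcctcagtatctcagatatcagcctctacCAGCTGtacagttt
Ppp1r3c, chr19:36736605-36736854, minus strand: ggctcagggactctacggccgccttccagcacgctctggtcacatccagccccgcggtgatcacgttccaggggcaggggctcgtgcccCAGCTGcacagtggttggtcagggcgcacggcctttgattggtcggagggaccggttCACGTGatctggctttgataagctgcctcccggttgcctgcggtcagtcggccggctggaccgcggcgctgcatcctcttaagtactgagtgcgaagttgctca
All 9 members matched a RefSeq promoter. CANNTG, which reads the same on both strands, was found in 8 of the 9, against 66.2% of 32817 mouse promoters of the same length, and Pygb was the member without it. CAGCTG, an E-box that MyoD binds and a part of the CANNTG count, was found in 5 of 9 (Pygm, Ppp1r3a, Ppp1r3c, Phka1 and Gys1), against 13.0% of promoters. Pygm held it at 168 and at 8 bases before the start, and the Ppp1r3c window also held CACGTG. The MEF2 motif, searched on both strands, was found in Ppp1r3a, 100 bases before the start, against 2.92% of promoters. The E2F motifs TTTCCCGC or TTTGGCGC, searched on both strands, were found in 0 of 9, against 1.30% of promoters. These matches describe the letters of the windows and no binding was measured.

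**Figure D1:**
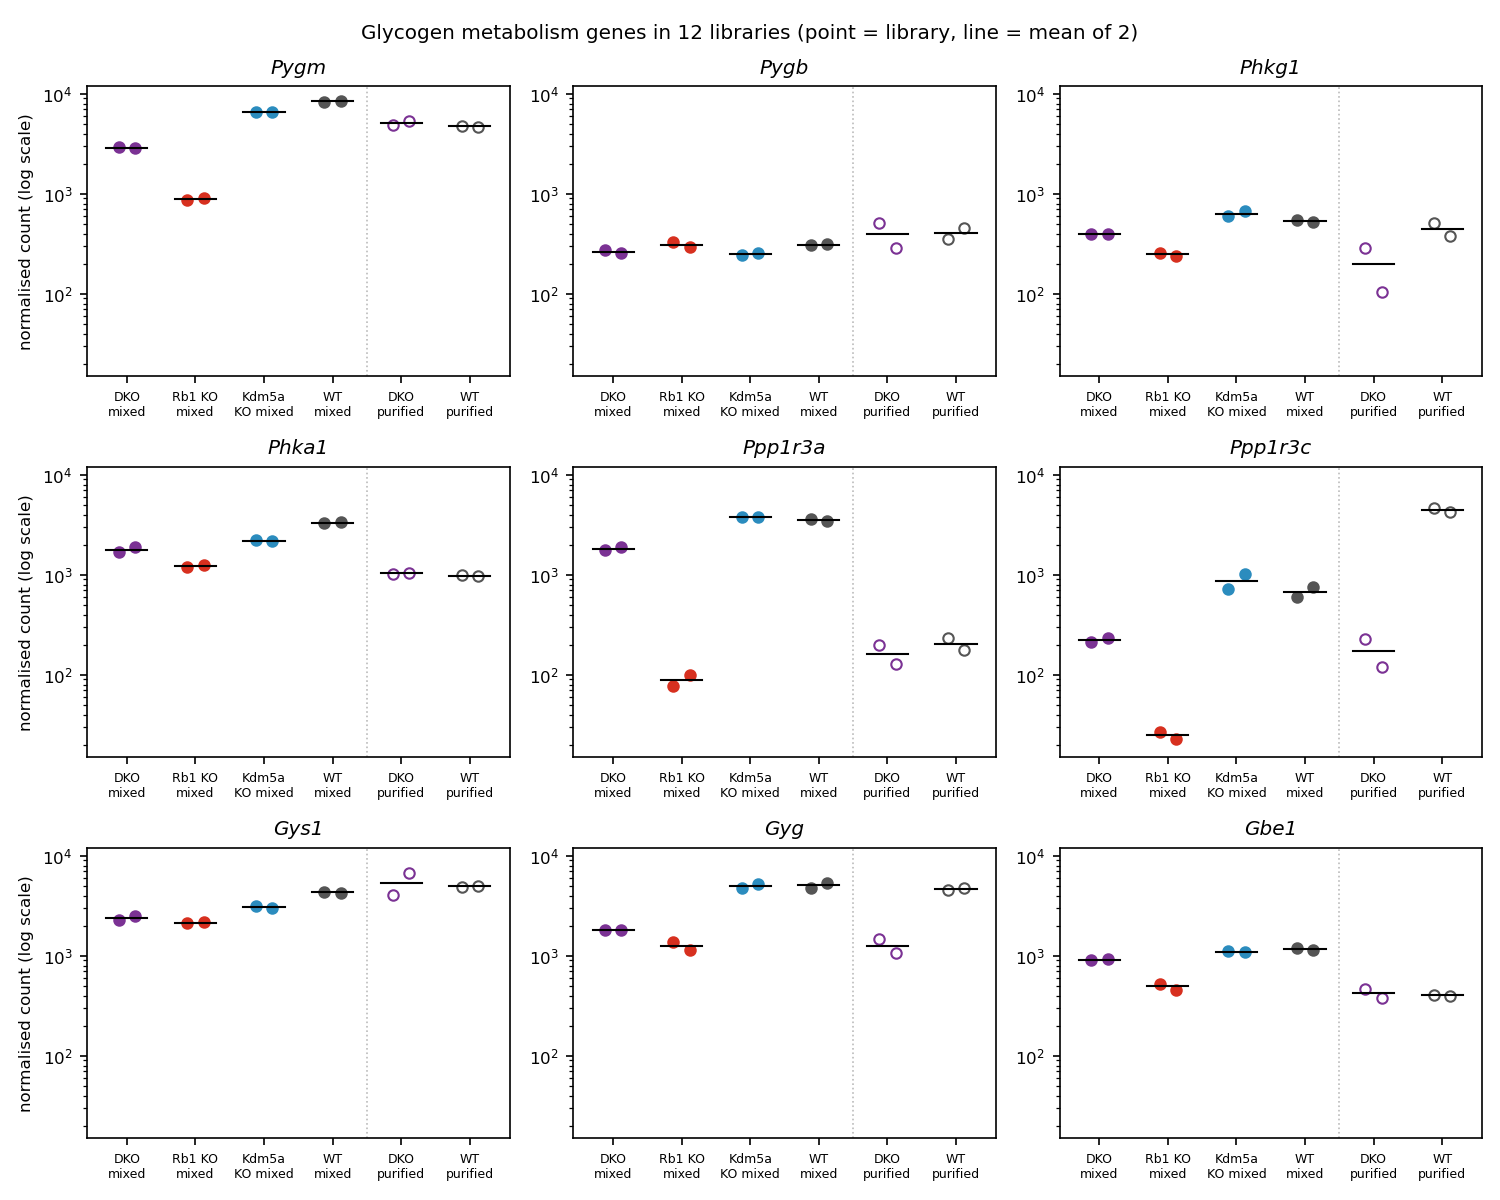
Normalised count (log scale) of the 9 glycogen metabolism genes in each of the 12 libraries, filled points for mixed cultures and open points for purified myotubes, with a line at the mean of the 2 libraries of a group. Ppp1r3a and Ppp1r3c lie lowest in Rb1 KO (77.0 and 99.6, and 27.0 and 22.6), Pygb spans 248 to 516, and Ppp1r3c is highest in purified WT myotubes (4642 and 4279.8).

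The muscle glycogen phosphorylase passed the test in each of the 5 comparisons of mixed cultures, whereas the brain enzyme passed in none of them. Pygm (ENSMUSG00000032648, chromosome 19) had 2946 and 2878 normalised counts in DKO, 876 and 919.6 in Rb1 KO, 6539 and 6632 in Kdm5a KO and 8392 and 8414 in WT mixed cultures. No groups overlapped, and the order was Rb1 KO, DKO, Kdm5a KO, WT. Pygm fell by 3.23 on the log2 scale in Rb1 KO against WT (SE 0.05, adjusted p = 1.25e-13), to 10.7% of the WT level, and was 3.24-fold higher in DKO than in Rb1 KO (log2 1.70 ± 0.05 SE, adjusted p = 1.13e-10). It remained below WT in DKO (log2 -1.53 ± 0.05 SE, adjusted p = 1.02e-10) and also fell in Kdm5a KO against WT (-0.35 ± 0.05 SE, adjusted p = 0.000387).

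Pygb (ENSMUSG00000033059, chromosome 2) had 272 and 258 normalised counts in DKO, 327 and 295 in Rb1 KO, 248 and 258 in Kdm5a KO and 309 and 314 in WT mixed cultures. The 8 libraries spanned 248 to 327, and Rb1 KO overlapped WT. The log2 difference of Pygb was -0.23 ± 0.13 (SE) in DKO against WT (adjusted p = 0.121), -0.0048 ± 0.13 in Rb1 KO against WT (adjusted p = 0.974) and -0.30 ± 0.13 in Kdm5a KO against WT (adjusted p = 0.0978). With quantile normalisation Pygb passed in DKO against WT (adjusted p = 0.0389). Per kb of exon, Pygm held 94.1% ± 0.0985 (SD, n = 2) of the phosphorylase signal in DKO, 80.8% ± 1.83 in Rb1 KO, 97.5% ± 0.0465 in Kdm5a KO and 97.6% ± 0.0266 in WT. Pygb held 5.74% in DKO, 18.7% in Rb1 KO, 2.50% in Kdm5a KO and 2.42% in WT. The third paralogue, the liver enzyme Pygl, had at most 16.2 normalised counts in any library and no reads in either WT mixed library, where a count of 0 allows up to 1.69 (3 reads over the group).

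**Figure D2:**
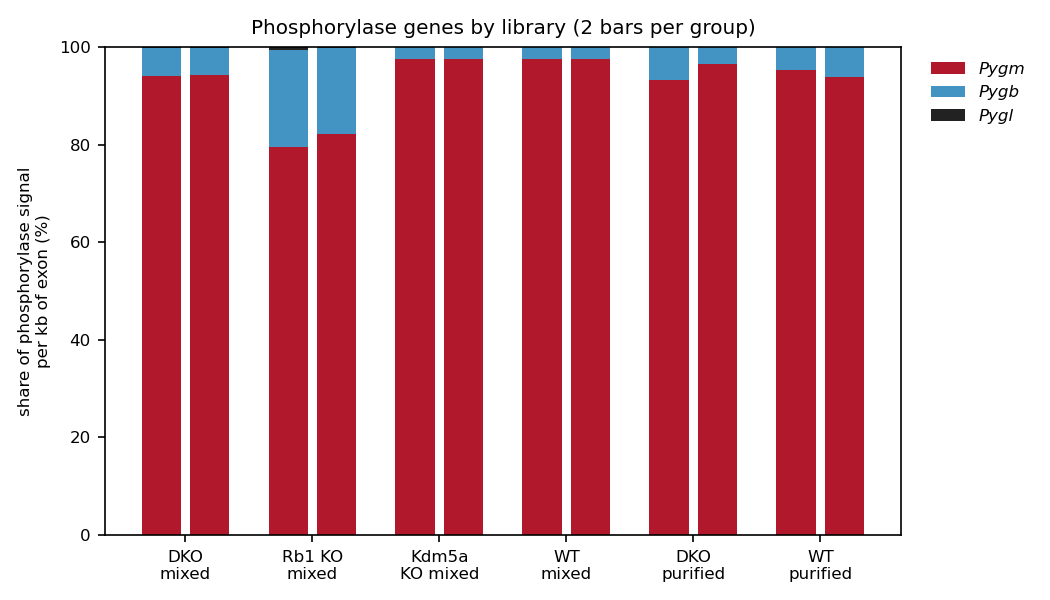
Share (%) of the phosphorylase signal per kb of exon held by Pygm, Pygb and Pygl, with a bar for each of the 12 libraries. The Pygb share is widest in the Rb1 KO libraries (19.8% and 17.6%), against 2.40% and 2.44% in WT mixed cultures.

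Both muscle subunits of phosphorylase kinase fell in Rb1 KO and in DKO against WT, where 34.3% and 33.9% of all genes tested fell. Phkg1 (ENSMUSG00000025537, chromosome 5), the muscle gamma subunit, had 399 and 397 normalised counts in DKO, 259 and 238 in Rb1 KO, 601 and 672 in Kdm5a KO and 546 and 523 in WT. No groups overlapped, with Rb1 KO lowest and Kdm5a KO highest. Phkg1 fell in Rb1 KO against WT (log2 -1.10 ± 0.11 SE, adjusted p = 1.14e-06) and in DKO against WT (-0.42 ± 0.11 SE, adjusted p = 0.00391), and was 1.60-fold higher in DKO than in Rb1 KO (adjusted p = 0.00023). Its value is less certain than that of the others, because 9.68% of its exon bases are shared with Sumf2 on the other strand, and no source used here says whether counting used strand.

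Phka1 (ENSMUSG00000034055, chromosome X), the muscle alpha subunit, had 1686 and 1881 normalised counts in DKO, 1191 and 1267 in Rb1 KO, 2225 and 2181 in Kdm5a KO and 3299.8 and 3375 in WT. Here too the groups did not overlap, and every mutant lay below WT. It fell in Rb1 KO (log2 -1.44 ± 0.07 SE, adjusted p = 1.09e-09), in DKO (-0.91 ± 0.07 SE, adjusted p = 1.14e-07) and in Kdm5a KO (-0.60 ± 0.07 SE, adjusted p = 5.21e-05), each against WT. Phka1 is X-linked, and both Kdm5a KO and DKO differ from WT in sex, so the median of 651 X-linked genes is given beside it. That median was 0.0864 on the log2 scale in Kdm5a KO against WT, and 10.3% of these genes lay below Phka1. In DKO against WT it was -0.0847, and 22.1% lay below Phka1. The liver alpha subunit Phka2, also X-linked, did not pass in Kdm5a KO against WT (-0.02, adjusted p = 0.860). Phka1 held 46.1% ± 0.638 (SD, n = 2) of the alpha subunit signal per kb of exon in DKO, 50.4% ± 2.96 in Rb1 KO, 48.3% ± 0.0719 in Kdm5a KO and 58.2% ± 2.90 in WT. With mean transcript length in place of exon length, the Phka1 share was 25.4% in DKO, 28.9% in Rb1 KO, 27.2% in Kdm5a KO and 35.7% in WT, so that its level against that of Phka2 depends on the length used.

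The glycogen-targeting subunits of protein phosphatase 1 had the largest differences of the 9 genes in Rb1 KO against WT and in DKO against Rb1 KO. Ppp1r3a (ENSMUSG00000042717, chromosome 6), the muscle subunit, had 1781 and 1888 normalised counts in DKO, 77.0 and 99.6 in Rb1 KO, 3807 and 3832 in Kdm5a KO and 3616 and 3455 in WT. Rb1 KO lay far below every other group, and DKO lay between it and WT. Ppp1r3a fell by 5.32 on the log2 scale in Rb1 KO against WT (SE 0.10, adjusted p = 4.04e-13), to 2.50% of the WT level. It was 20.7-fold higher in DKO than in Rb1 KO (log2 4.37 ± 0.10 SE, adjusted p = 1.48e-11), and was 51.9% of the WT level in DKO (log2 -0.95 ± 0.10 SE, adjusted p = 3.18e-06). In Kdm5a KO it did not pass against WT (0.11 ± 0.10 SE, adjusted p = 0.455).

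Ppp1r3c (ENSMUSG00000067279, chromosome 19), a subunit also known as PTG that is found in many tissues, had 215 and 232 normalised counts in DKO, 27.0 and 22.6 in Rb1 KO, 723 and 1020.1 in Kdm5a KO and 601 and 757 in WT. Kdm5a KO and WT overlapped, and the other groups did not. It fell in Rb1 KO to 3.66% of the WT level (log2 -4.71 ± 0.19 SE, adjusted p = 1.95e-10), was 8.71-fold higher in DKO than in Rb1 KO (log2 3.12 ± 0.19 SE, adjusted p = 4.24e-08), and in DKO was 32.9% of WT (log2 -1.59 ± 0.19 SE, adjusted p = 6.96e-06). Over the same contrasts the myotube marker sum was 40.7% of the WT sum in DKO and 13.5% in Rb1 KO. Both subunits lay below the sum's percentage in Rb1 KO, and in DKO Ppp1r3a lay above it and Ppp1r3c below it. The sum rests mostly on the most abundant markers, and it includes Tnnc2, with 74.0% of its exon bases shared with Ube2c. The median log2 difference of the 10 markers against WT was -1.55 in DKO and -3.73 in Rb1 KO. By that median both subunits still lay below the markers in Rb1 KO, but Ppp1r3c lay close to them in DKO.

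All 3 synthesis genes fell in Rb1 KO and in DKO against WT, where 34.3% and 33.9% of all genes tested fell. Gys1 (ENSMUSG00000003865, chromosome 7) had 2279 and 2483 normalised counts in DKO, 2112 and 2159.6 in Rb1 KO, 3153 and 3002 in Kdm5a KO and 4384 and 4252 in WT. DKO and Rb1 KO were close without overlapping, and both lay below Kdm5a KO, which lay below WT. Gys1 fell in Rb1 KO (log2 -1.02 ± 0.06 SE, adjusted p = 9.39e-09), in DKO (-0.86 ± 0.06 SE, adjusted p = 5.89e-08) and in Kdm5a KO (-0.49 ± 0.06 SE, adjusted p = 9.88e-05), each against WT. Its log2 difference in DKO against Rb1 KO was 0.16 ± 0.06 SE (adjusted p = 0.0517), a value at the edge of the threshold, with an adjusted p of 0.0314 with edgeR and of 0.0144 with DESeq2. It shares 6.47% of its exon bases with Ruvbl2 on the other strand. The liver synthase Gys2 had at most 12.1 normalised counts in any library.

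Gyg (ENSMUSG00000019528, chromosome 3) had 1802 and 1837 normalised counts in DKO, 1369 and 1145 in Rb1 KO, 4788 and 5289 in Kdm5a KO and 4775 and 5403 in WT. Kdm5a KO lay within the WT range, and DKO lay nearer to Rb1 KO than to WT. Gyg fell in Rb1 KO to 24.7% of WT (log2 -2.02 ± 0.09 SE, adjusted p = 4.63e-10) and in DKO to 35.7% (log2 -1.48 ± 0.09 SE, adjusted p = 1.13e-08), and was 1.45-fold higher in DKO than in Rb1 KO (adjusted p = 0.000264). Gbe1 (ENSMUSG00000022707, chromosome 16) had 917 and 924 normalised counts in DKO, 529 and 461 in Rb1 KO, 1120.4 and 1082 in Kdm5a KO and 1187 and 1154 in WT. The 4 groups did not overlap, and DKO lay nearer to WT than to Rb1 KO. Gbe1 fell in Rb1 KO against WT (log2 -1.24 ± 0.09 SE, adjusted p = 3.69e-08) and in DKO against WT (-0.35 ± 0.09 SE, adjusted p = 0.00312), and was 1.86-fold higher in DKO than in Rb1 KO (adjusted p = 2.91e-06).

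Most of the set was lower in Rb1 KO than in WT. In this comparison, 8 of the 9 genes fell and Pygb did not pass, where 34.3% of all 17199 genes tested fell, 36.8% rose and 71.1% passed in either direction. The median log2 difference of the 9 was -1.44, beside 0.03 over all genes. The falls spanned -1.02 for Gys1 to -5.32 for Ppp1r3a. In the same comparison all 10 myotube markers fell, all 10 fibroblast markers and 5 of 5 genes of cycling cells rose, and 3 of the 4 macrophage and blood markers tested rose.

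In DKO most of the set lay above Rb1 KO and below WT. In DKO against Rb1 KO, 7 of the 9 rose and Pygb and Gys1 did not pass, where 23.1% of all genes rose and 47.3% passed, and the median log2 difference was 0.68, beside -0.01 over all genes. The rises were 4.37 for Ppp1r3a, 3.12 for Ppp1r3c, 1.70 for Pygm, 0.90 for Gbe1, 0.68 for Phkg1 and 0.54 for Phka1 and Gyg. All 10 myotube markers rose, 8 of 10 fibroblast markers fell, 3 of the 4 endothelial markers tested rose and 3 of the 4 macrophage and blood markers fell in this comparison. In DKO against WT, 8 of the 9 fell and Pygb did not pass, where 33.9% of all genes fell, 34% rose and 67.9% passed, with a median of -0.91, beside -0.004 over all genes. DKO levels were 32.9% of WT for Ppp1r3c, 34.7% for Pygm, 35.7% for Gyg and 51.9% for Ppp1r3a. They were 53.4% for Phka1, 55.1% for Gys1, 74.5% for Phkg1 and 78.6% for Gbe1. The myotube marker sum, which rests mostly on the most abundant markers, was 40.7% of WT. Ppp1r3c, Pygm and Gyg lay below that percentage, and the other genes that fell lay above it. The median log2 difference of the 10 myotube markers was -1.55, beside -0.91 for the 9 genes. In the same comparison all 10 myotube markers fell, all 5 genes of cycling cells rose, and 7 of 10 fibroblast markers rose and 1 fell. The 4 endothelial and 3 brain and glia markers tested also rose, as did 3 of the 4 macrophage and blood markers tested, of which 1 fell.

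**Figure D3:**
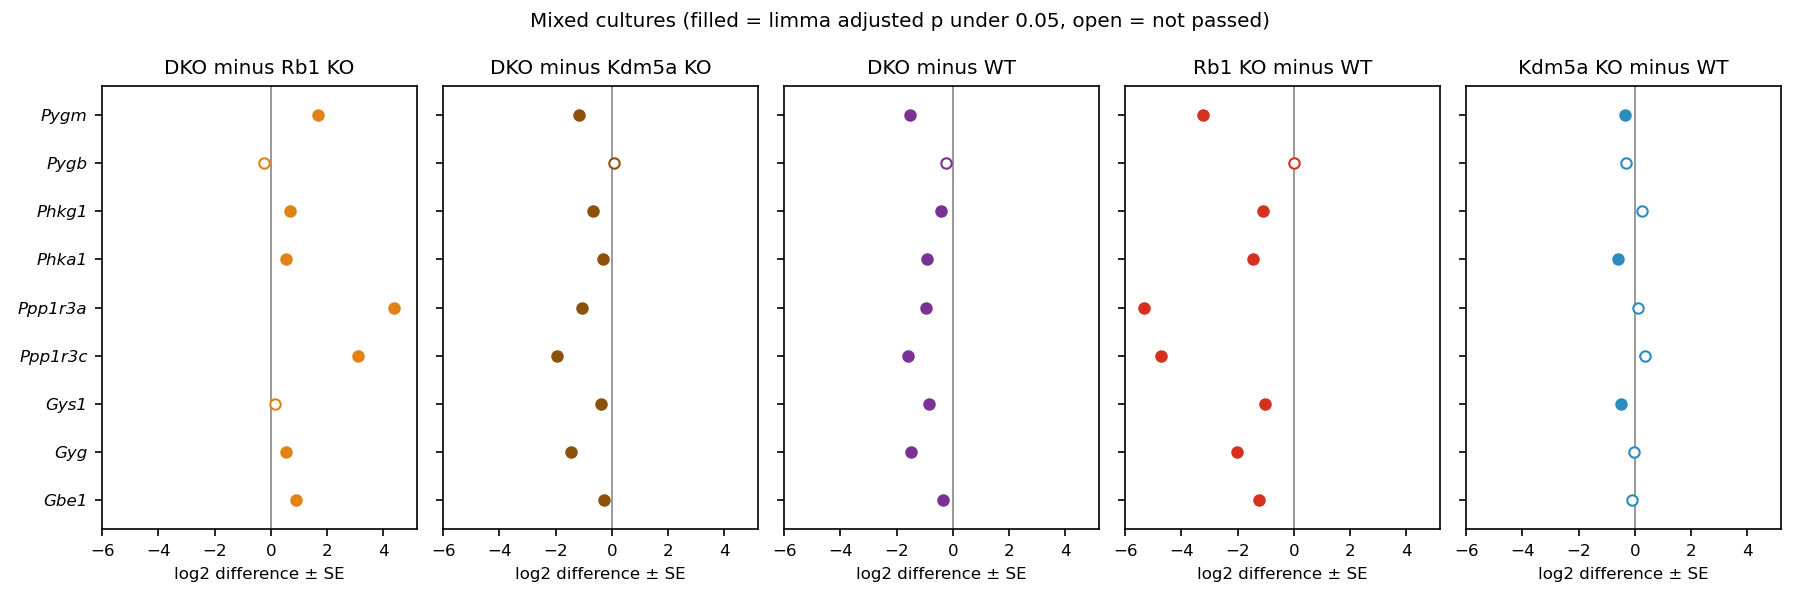
Log2 difference (with SE bars, many within the points) of the 9 genes in the 5 comparisons of mixed cultures, filled where the adjusted p was under 0.05. Ppp1r3a and Ppp1r3c lie farthest from 0 in DKO minus Rb1 KO (4.37 and 3.12) and in Rb1 KO minus WT (-5.32 and -4.71), and Pygb is open throughout.

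Most of the set did not pass in Kdm5a KO against WT. In this comparison, 3 of the 9 fell (Pygm, Phka1 and Gys1) and 6 did not pass, where 13.8% of all genes fell and 27.2% passed, with a median of -0.088, beside 0.005 over all genes. Ppp1r3c and Phkg1 had positive differences of 0.35 ± 0.19 and 0.25 ± 0.11 (SE) that did not pass (adjusted p = 0.190 for Ppp1r3c and 0.109 for Phkg1). In this comparison 8 of 10 myotube markers fell and 1 rose. DKO against Kdm5a KO compares cells of the same sex. There 8 of the 9 fell, where 33.4% of all genes fell, 33.7% rose and 67.2% passed. The median was -0.67, beside 0.015 over all genes. Of the 10 myotube markers 8 fell and 1 rose there, with a median of -1.05. All 5 genes of cycling cells and the 4 endothelial markers tested rose, and 7 of 10 fibroblast markers rose and 1 fell. Ppp1r3c fell by 1.94, Gyg by 1.47, Pygm by 1.18, Ppp1r3a by 1.06, Phkg1 by 0.67, Gys1 by 0.37, Phka1 by 0.31 and Gbe1 by 0.26 on the log2 scale, and Pygb did not pass (0.07 ± 0.13 SE, adjusted p = 0.648). The fall of Gbe1 (adjusted p = 0.0174) did not hold without Kdm5a KO replicate 1 (0.0868), DKO replicate 1 (0.0841) or DKO replicate 2 (0.0730).

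The interaction asks whether losing Kdm5a changed a gene differently in cells without Rb1 than in cells with it, as the log2 difference of DKO and Rb1 KO less that of Kdm5a KO and WT. It was positive and passed for 8 of the 9 genes, where 18.8% of all genes passed with a positive value and 38.3% passed in all, and the median was 0.98, beside -0.02 over all genes. In the same test all 10 myotube markers were positive and passed, with a median of 2.61, and 9 of 10 fibroblast markers were negative and passed. Ppp1r3a had 4.26 ± 0.14 (SE, adjusted p = 8.14e-10), Ppp1r3c 2.77 ± 0.26 (adjusted p = 5.04e-06) and Pygm 2.05 ± 0.07 (adjusted p = 1.39e-09). Phka1 had 1.13, Gbe1 0.985, Gys1 0.64, Gyg 0.55 and Phkg1 0.43. The call of Phkg1 (adjusted p = 0.0435) was lost with edgeR (0.0538), with DESeq2 (0.0576) and without any of 5 of the 8 libraries (0.0830 to 0.144), namely WT replicate 1, Kdm5a KO replicate 1, Rb1 KO replicate 2 and either DKO replicate. Pygb had 0.07 ± 0.18 (SE, adjusted p = 0.777). These comparisons share the DKO, Rb1 KO and WT libraries, and their values for a gene are not independent.

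Other genes of glycogen metabolism moved in both directions. Of 29 listed, which were chosen with results of these data known, 26 passed the filter, and Pygl, Gys2 and Ppp1r3g did not. In Rb1 KO against WT 15 fell, 3 rose and 8 did not pass, where 34.3% of all genes fell, 36.8% rose and 71.1% passed, and the median log2 difference was -0.60, beside 0.03 over all genes. Stbd1, which anchors glycogen to membranes, fell by 3.24, Ugp2, which makes UDP-glucose for the synthase, by 1.97 and Pgm5, a muscle relative of phosphoglucomutase, by 2.02. The beta subunit of phosphorylase kinase, Phkb, fell by 1.19 and Phka2 by 0.99, while the liver and testis gamma subunit Phkg2 did not pass (-0.31 ± 0.14 SE, adjusted p = 0.0688). Ugp2, Phkg2 and Phka2 share exon bases with another gene, and so does Pgm1 below, and their values are less certain.

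In DKO against Rb1 KO 15 of the 26 rose, 4 fell and 7 did not pass, where 23.1% of all genes rose, 24.2% fell and 47.3% passed, and the median was 0.44, beside -0.01 over all genes. Pgm1, a phosphoglucomutase that links glucose 1-phosphate to glycolysis, rose by 1.90 (adjusted p = 1.63e-09), Stbd1 by 1.06, Pgm5 by 0.97, Phkb by 0.90 and Phka2 by 0.79, whereas Phkg2 did not pass (-0.17, adjusted p = 0.364). Pgm1 had 2186 and 2194 normalised counts in DKO, 616 and 561 in Rb1 KO, 1766 and 1612 in Kdm5a KO and 1280.2 and 1183 in WT, and thus lay above WT in DKO. Pgm1 stood 0.83 above WT on the log2 scale in DKO (adjusted p = 9.78e-07), while 15 of the 26 fell in DKO against WT and 7 rose, where 33.9% of all genes fell, 34% rose and 67.9% passed. The falls there included Stbd1 (-2.18), Ugp2 (-1.67), Prkag3 (-1.33), a muscle gamma subunit of AMP-activated kinase, Phkg2 (-0.47), Phkb (-0.29) and Phka2 (-0.20). The call of Phkb was lost with quantile normalisation (-0.13, adjusted p = 0.0717). That of Phkg2 (adjusted p = 0.010) was lost without WT replicate 1 (0.0989) or DKO replicate 1 (0.0789), and that of Phka2 (adjusted p = 0.042) without WT replicate 1 (0.337), DKO replicate 1 (0.241) or DKO replicate 2 (0.0545) and with TMM (0.0701), quantile normalisation (0.486, log2 difference -0.066), no filter on low values (0.0714), edgeR (0.0545), DESeq2 (0.051) or a fit of the 2 groups alone (0.0619). In Kdm5a KO against WT 7 of the 26 fell, 2 rose and 17 did not pass, where 13.8% of all genes fell, 13.4% rose and 27.2% passed. Ppp1r3b, another targeting subunit, rose by 1.11 (adjusted p = 0.000133), Pgm5 fell by 1.02 and Ugp2 fell by 0.44. Without Kdm5a KO replicate 1 that comparison had 5 of the 26 passing instead of 9, where 17.7% of all genes then passed. In DKO against Kdm5a KO 13 fell and 8 rose, where 33.4% of all genes fell, 33.7% rose and 67.2% passed. The interaction was positive and passed for 16 and negative for 3, where 18.8% of all genes passed with a positive value and 19.5% with a negative one, with 1.99 for Pgm5, 1.44 for Pgm1, 1.36 for Stbd1, 0.81 for Phka2 and 0.77 for Phkb.

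**Figure D4:**
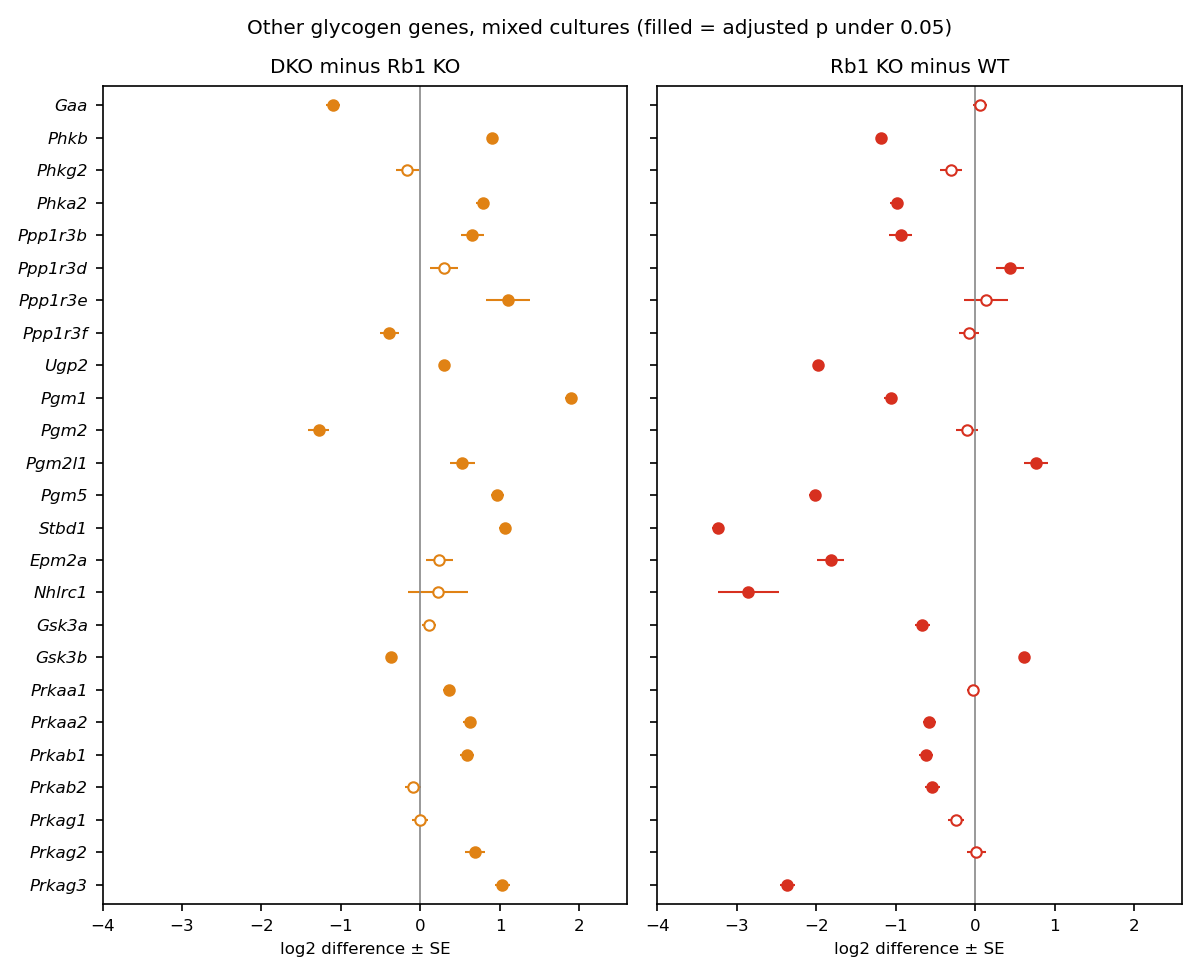
Log2 difference (with SE) of 25 of the 26 other glycogen genes in mixed cultures, for DKO minus Rb1 KO and Rb1 KO minus WT, filled where the adjusted p was under 0.05. Stbd1 lies lowest in Rb1 KO minus WT (-3.24) and Pgm1 highest in DKO minus Rb1 KO (1.90).

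Levels between the genes were compared per kb of exon. In WT mixed cultures Pygm (2611 ± 4.74, SD, n = 2) and Gyg (2171 ± 189.5) led, followed by Gys1 (901.6 ± 19.5), Phka1 (533 ± 8.47), Ppp1r3a (508 ± 16.3), Ppp1r3c (249 ± 40.5), Gbe1 (219 ± 4.29), Phkg1 (82.1 ± 2.41) and Pygb (64.8 ± 0.848). Ppp1r3c and Gbe1 overlapped in this order. In Rb1 KO the order was Gyg (536 ± 67.6), Gys1 (446 ± 7.05), Pygm (279 ± 9.50), Phka1 (196 ± 8.61), Gbe1 (92.5 ± 9.07), Pygb (64.7 ± 4.66), Phkg1 (38.2 ± 2.30), Ppp1r3a (12.7 ± 2.29) and Ppp1r3c (9.11 ± 1.14), so that both targeting subunits lay below Pygb. In DKO mixed cultures Pygm (905 ± 15.1) and Gyg (776 ± 10.6) led again, and Phka1 (285 ± 22.1) and Ppp1r3a (263 ± 10.9) overlapped. In Kdm5a KO Gyg (2149.7 ± 151) and Pygm (2046 ± 20.5) overlapped at the top. In purified DKO myotubes Pygm (1589 ± 109), Gys1 (1125 ± 387) and Gyg (542 ± 117) led, and in purified WT myotubes Gyg (1972 ± 60.5), Ppp1r3c (1637 ± 93.9) and Pygm (1476.5 ± 28.7), without overlap within either trio. With mean transcript length in place of exon length, an alternative chosen after seeing the data, Gys1 (mean 3188) led in purified WT, before Gyg (3075 ± 94.3), Pygm (2868 ± 55.8) and Ppp1r3c (1637 ± 93.9), and Gys1 also led in purified DKO (3457 ± 1191, with Pygm at 3087 ± 212) and in Rb1 KO (1371 ± 21.7, with Gyg at 836 ± 105). Pygm led with either length in WT and DKO mixed cultures, and both targeting subunits lay below Pygb in Rb1 KO with either. The orders thus depend on the length used, and they rest on exon lengths of an annotation of a later genome build than the reads were aligned to.

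In purified myotubes, Ppp1r3c and Gyg were lower in DKO than in WT, and the phosphorylase Pygm was not among the genes that passed. In all, 2 of the 9 genes fell and 7 did not pass, where 18.6% of all 16670 genes tested fell, 21% rose and 39.6% passed, and the median of the 9 was -0.08, beside -0.05 over all genes. Ppp1r3c had 229 and 121 normalised counts in DKO, against 4642 and 4279.8 in WT purified myotubes, and fell by 4.73 on the log2 scale (SE 0.34, adjusted p = 0.00142). DKO lay at 3.93% of WT, without overlap. Gyg had 1465 and 1076 in DKO, against 4523 and 4723 in WT, and fell by 1.88 (SE 0.23, adjusted p = 0.00405), a call lost without WT replicate 1 or WT replicate 2 (adjusted p = 0.0596 and 0.0616). The myotube marker sum was 187441 to 197181 in purified DKO, against 629738 to 643956 in purified WT. The fibroblast marker sum was 26205 to 34027 in purified DKO, against 17840 to 21639 in purified WT, where Lum had no reads. The sum over cycling cells was 11801 to 23715 in purified DKO, against 80.0 to 90.7 in purified WT, where Ccnb1 had no reads. Endothelial markers summed to 263 to 274 in purified DKO, against 67.0 to 89.4 in purified WT, where Emcn had no reads. Macrophage and blood markers summed to 426 to 1052 in purified DKO, against 128 to 153 in purified WT, where Lyz2 had no reads. The median macrophage and blood marker, however, averaged 4.13 in purified DKO, against 25.0 in purified WT. Of the 2 such markers tested, 1 rose and 1 fell. The part of these cell types in the differences was not tested.

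Pygm had 4866 and 5362 normalised counts in DKO, against 4817 and 4686 in WT purified myotubes, a log2 difference of 0.10 ± 0.18 (SE, adjusted p = 0.673). The groups lay side by side without overlapping. Phka1 had 1025 and 1056 in DKO, against 997 and 975 in WT (0.08 ± 0.18 SE, adjusted p = 0.756), and Gbe1 had 468 and 381 in DKO, against 411 and 395 in WT (0.07 ± 0.22 SE, adjusted p = 0.822). These differences are smaller than their SE, and the spread between the purified DKO libraries limits what could be seen. Gys1 had 4074 and 6697 in DKO, against 4945 and 4989 in WT, so that the DKO libraries lay on either side of WT. Its log2 difference of 0.07 ± 0.29 (SE, adjusted p = 0.853) became 0.43 without DKO replicate 1 (adjusted p = 0.00448) and -0.29 without DKO replicate 2 (adjusted p = 0.0163), and the lone library was then assumed to vary like the WT pair.

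Phkg1 had 289 and 105 in DKO, against 515 and 378 in WT purified myotubes, without overlap (log2 -1.34 ± 0.52 SE, adjusted p = 0.0979), and passed with DESeq2 (adjusted p = 0.0481). Its value was -2.07 without DKO replicate 1 (adjusted p = 0.00257) and -0.61 without DKO replicate 2 (adjusted p = 0.0695). Ppp1r3a had 198 and 129 in DKO, against 233 and 179 in WT (-0.35 ± 0.33 SE, adjusted p = 0.422), and Pygb 516 and 286 in DKO, against 357 and 461 in WT (-0.08 ± 0.35 SE, adjusted p = 0.868), both with overlap. The value of Ppp1r3a was -0.66 without DKO replicate 1 (adjusted p = 0.0659) and -0.04 without DKO replicate 2 (adjusted p = 0.892). Without DKO replicate 1, the number of the 9 genes that passed was 4 instead of 2, where 69.7% of all genes then passed instead of 39.6%. Pygm held 94.9% ± 2.26 (SD, n = 2) of the phosphorylase signal per kb in DKO and 94.5% ± 1.01 in WT, and Phka1 held 36.7% ± 1.31 of the alpha subunit signal in DKO and 53.6% ± 0.623 in WT. Phka2 had 1786 and 1699 normalised counts in DKO, against 850.2 and 803 in WT, and rose by 1.08 (adjusted p = 0.0103), a call lost without WT replicate 1 (0.177) or WT replicate 2 (0.200). Of the 26 other genes 3 rose, 6 fell and 17 did not pass in this comparison, with Pgm1 at 2.73 (adjusted p = 0.00138), Pgm5 at -2.09 (adjusted p = 0.00237) and Pgm2, another phosphoglucomutase, at -2.36 (adjusted p = 0.00263) on the log2 scale. For these 26 genes the number that passed was 4 instead of 9 without either WT library, 16 without DKO replicate 1 and 18 without DKO replicate 2. The share of all genes that passed was 11.9% without WT replicate 1, 13.0% without WT replicate 2, 69.7% without DKO replicate 1 and 62.2% without DKO replicate 2.

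**Figure D5:**
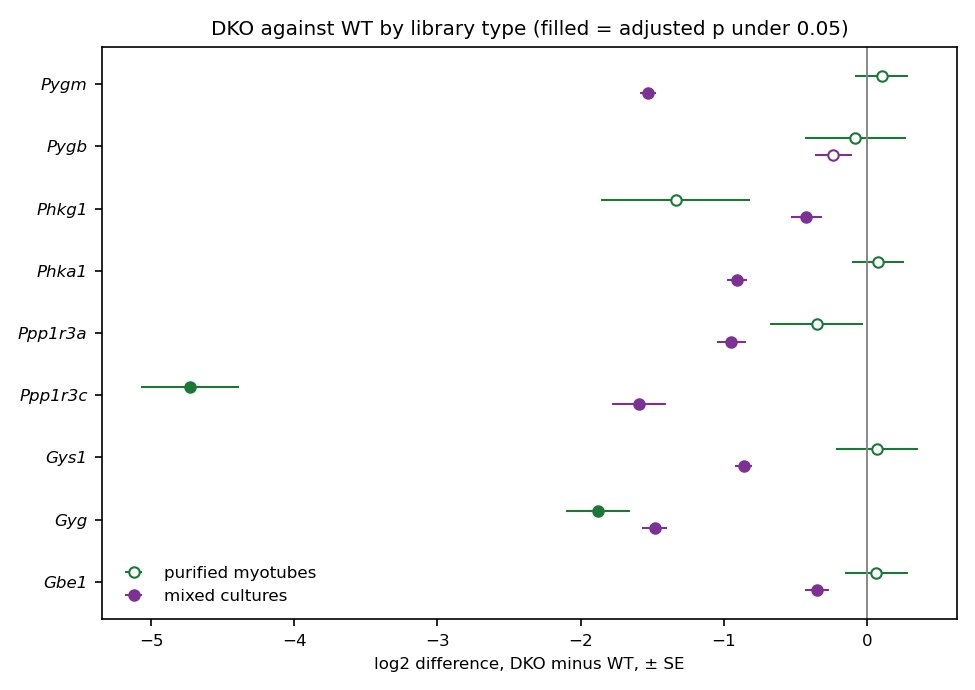
Log2 difference (DKO minus WT, with SE) of the 9 genes in purified myotubes above and in mixed cultures below, filled where the adjusted p was under 0.05. Pygm is at 0.10 in purified myotubes and -1.53 in mixed cultures, and Ppp1r3c is at -4.73 in purified myotubes and -1.59 in mixed cultures.

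Whether the DKO difference itself differed between library types was tested on all 12 libraries, as the purified less the mixed log2 difference. It was positive for Pygm (1.63 ± 0.13 SE, adjusted p = 4.49e-05), Phka1 (0.98 ± 0.14, adjusted p = 0.000982) and Gys1 (0.93 ± 0.26, adjusted p = 0.0254) and negative for Ppp1r3c (-3.14 ± 0.39, adjusted p = 0.000457), which makes 4 of 9, where 24.8% of 17273 genes passed (11.6% positive, 13.2% negative). The test was not passed by Gyg (adjusted p = 0.205), Phkg1 (0.222), Ppp1r3a (0.170), Gbe1 (0.135) or Pygb (0.781). The Gys1 call was lost without any WT library or either mixed DKO library (adjusted p = 0.0617 to 0.0934), and its value was 0.57 without purified DKO replicate 2. Without that library 7 of the 9 genes passed, where 38.3% of all genes then passed. Of the 26 other genes 3 were positive and 2 negative, among them Pgm1 (1.90), Phka2 (1.28), Pgm5 (-1.04) and Pgm2 (-0.97). The call of Pgm2 was lost without mixed DKO replicate 1 (adjusted p = 0.0588), and the number of these genes that passed was 3 instead of 5 without that library, 18 without purified DKO replicate 1 and 10 without purified DKO replicate 2, where 24.8% of all genes passed with every library, 14.3% without mixed DKO replicate 1, 52.0% without purified DKO replicate 1 and 38.3% without purified DKO replicate 2.

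The levels of the members in the 2 library types differed in opposite directions within WT. In purified against mixed WT, Ppp1r3c rose 6.60-fold (log2 2.72 ± 0.28 SE, adjusted p = 2.17e-05), whereas Ppp1r3a fell by 4.11 (SE 0.21, adjusted p = 2.57e-07), Phka1 by 1.76, Gbe1 by 1.54 and Pygm by 0.82, and Gyg, Gys1, Phkg1 and Pygb did not pass. That makes 5 of the 9, where 55.6% of all genes passed (27% higher and 28.6% lower). Ppp1r3a had 233 and 179 normalised counts in purified WT myotubes, against 3616 and 3455 in WT mixed cultures. In purified against mixed DKO, Gys1 rose by 1.13 (SE 0.18, adjusted p = 0.00042) and Pygm by 0.81 (SE 0.09, adjusted p = 4.1e-05), while Ppp1r3a fell by 3.51, Phkg1 by 1.19, Gbe1 by 1.12, Phka1 by 0.78 and Gyg by 0.53, which makes 7 of the 9, where 59.4% of all genes passed (27.9% higher and 31.5% lower). Ppp1r3c did not pass there (-0.42 ± 0.28 SE, adjusted p = 0.219). The calls of Phkg1 (adjusted p = 0.0165) and Gyg (adjusted p = 0.0118) were lost without either mixed DKO library, and without purified DKO replicate 2 the value was -0.46 for Phkg1 and -0.31 for Gyg. Without purified DKO replicate 1 the value of Phkg1 was -1.92, and Ppp1r3c passed (-0.87, adjusted p = 0.00144). Pygb did not pass in this comparison (0.53), but did without purified DKO replicate 2 (0.96, adjusted p = 0.000191) and with DESeq2 (adjusted p = 0.0466). With only the 2 groups fitted, the calls of Phkg1 (adjusted p = 0.128) and Gyg (0.109) were lost. Of the 26 other genes, 4 rose and 13 fell in WT and 8 rose and 15 fell in DKO, and with only the 2 groups fitted 5 rose and 10 fell in DKO, where 40.4% of all genes then passed. Phkb fell by 1.65 in WT and by 1.46 in DKO, and Ugp2 fell by 1.70 in WT and by 1.78 in DKO. Purified DKO libraries held 0.109% and 0.0178% of their reads in mt-Rnr2, a mitochondrial ribosomal RNA, purified WT libraries 0.0623% and 0.0630%, and mixed libraries of all genotypes 10.0 to 16.6%. The purified DKO pair thus stood farther apart than the purified WT pair.

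Across the 12 libraries, the genes most like each member were sought among 12107 genes with a mean normalised count of at least 100, by Pearson r of log2 values. The libraries fall into groups and share 2 library types, so these r are descriptions. Pygm was most like Eno3 (r = 0.987), the muscle enolase, and Pfkm (0.981), the muscle phosphofructokinase. Gyg was like Tmem9b (0.993) and Stbd1 (0.991), and Gbe1 like Phkb (0.988). Ppp1r3a was like Sema5a (0.975) and Inpp4a (0.975), Gys1 like Fbxl6 (0.993), Phkg1 like Etfrf1 (0.980) and Phka1 like Jph1 (0.965). The highest r for Pygb was 0.899.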

How the data were processed

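RNA-seq libraries of 12 samples were analysed. The deposited values are read counts per gene divided by a size factor of each library (a normalised signal, not raw counts); per the submitters' processing notes, the authors used TopHat 1.2.0, the mm9 build and DESeq (no version is named). The read counter and its strand setting are not given in the sources used here. Dividing each column by its smallest step recovered whole reads (100% of values within 0.01 of a whole number).

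Tests used limma 3.58.1 (R 4.3.3) with an intensity trend on log2(value + 1), two-sided, with Benjamini-Hochberg adjustment over all genes with a mean of at least 10 in the libraries fitted and a threshold of 0.05. Fold changes are on that scale and understate those of low genes. Mixed libraries had 1 fit (17199 genes), purified libraries their own (16670), and comparisons across types used all 12 (17273). Recovered reads were tested with edgeR 4.0.16 and DESeq2 1.42.0 as alternatives. Scripts were tested on simulated data. Gene names (30983 of 36229 identifiers), lengths of exons and overlaps between genes were taken from GENCODE M21, of a later build. Squared differences between replicates were 2.09 to 21.3 times those that counting error gives.

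The 9 genes and the lists were chosen with earlier results of these data known. Text names all 9 members, the paralogues and partner subunits of members, and up to 3 other glycogen genes with the smallest p per comparison. Pgm1 in DKO against WT was added after its values were seen. Some genes that this rule names are not reported here.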

Additional observations from a re-analysis of the deposited data

Results flagged for a closer look

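In mixed cultures the change that came with loss of Kdm5a differed between cells without and with Rb1, by the interaction test, for Pygm (2.05), Ppp1r3a (4.26), Ppp1r3c (2.77), Phkg1 (0.43), Phka1 (1.13), Gys1 (0.64), Gbe1 (0.985) and Gyg (0.55), all on the log2 scale. Among the other glycogen genes named, the same held for Phkb (0.77), Phka2 (0.81), Pgm5 (1.99), Pgm1 (1.44) and Stbd1 (1.36). All 10 myotube markers also passed that test with a positive value, and 9 of 10 fibroblast markers with a negative one. The genotypes with and without Kdm5a also differed in sex, and sex and genotype cannot be told apart in these values.

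The DKO difference from WT differed between purified myotubes and mixed cultures, by the test of that difference, for Pygm (1.63), Ppp1r3c (-3.14), Phka1 (0.98) and Gys1 (0.93), and for Phka2 (1.28), Pgm1 (1.90), Pgm5 (-1.04) and Pgm2 (-0.97). Ppp1r3c and Pygm moved in opposite directions between the library types: Ppp1r3c lay 4.73 below WT in purified and 1.59 below in mixed DKO, and Pygm 0.10 above and 1.53 below. DKO and WT also differed in sex, and Phka1 and Phka2 are X-linked. Purification, recovery, RNA selection and sequencing change together between the library types and cannot be told apart. The calls of Gys1 and Pgm2 were lost when some single libraries were left out.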

How the results depend on the processing

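Of 90 tests of the 9 genes, 60 passed, where 24.8% to 71.1% of all genes passed in a comparison. Of these 60, 54 kept their call and direction in every alternative run and none reversed, while 13 of the 30 that did not pass did so under some alternative. Quantile normalisation moved the median of all genes to -0.14 in DKO against WT (-0.004 as reported), and dropping the filter moved it to 0.18. Differences that had not passed changed sign as follows. Gyg in Kdm5a KO against WT became 0.0152 with TMM, 0.0427 with quantile normalisation and 0.0146 with edgeR, and spanned -0.1025 to 0.0758 when 1 library was left out. Pygb in Rb1 KO against WT became 0.0109 with TMM and 0.0084 with edgeR, and spanned -0.0782 to 0.0686. Pygb in DKO against Kdm5a KO became -0.041 with quantile normalisation. In purified DKO against WT, Pygb became 0.0117 with edgeR and spanned -0.5047 without DKO replicate 1 to 0.3446 without DKO replicate 2, Gbe1 spanned -0.0812 to 0.2162 and Gys1 -0.286 to 0.4311. Pygb in purified less mixed spanned -0.2725 to 0.5769, and Ppp1r3c in purified against mixed DKO -0.8732 to 0.0389. For these values the cause was not tested. Leaving out 1 library gave 3057 to 4251 genes in all in Kdm5a KO against WT (4685 as reported), 1983 to 11574 in purified DKO against WT (6598), with 1 to 4 of the 9, and 2471 to 8989 in purified less mixed (4292), with 3 to 7 of the 9; there the lone library is assumed to vary like the other groups. In purified DKO against WT, 68.3% of calls were then higher without WT replicate 1, against 53.0% as reported. With mean transcript length, the Pygm share was 89.7% in DKO, 69.4% in Rb1 KO, 95.4% in Kdm5a KO and 95.6% in WT mixed cultures and 91.1% in DKO and 90.4% in WT purified myotubes, and the Phka1 share was 25.4% in DKO, 28.9% in Rb1 KO, 27.2% in Kdm5a KO and 35.7% in WT mixed cultures and 18.8% in DKO and 31.6% in WT purified myotubes. Replicate numbers did not pair the libraries (correlations of replicate differences between groups from -0.047 to 0.052). With the replicate block 3 of the 9 passed in purified DKO against WT and 7 in the interaction. Without it these were 2 and 8, where 39.6% and 38.3% of all genes passed.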
